A study of Mus musculus with 24 samples.

Results

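Platelet factor 4 (PF4) was compared with saline in microglia taken from the hippocampus of aged mice. The comparison used 7 of the 24 libraries of the study, 4 from mice given PF4 (PF4 1 to PF4 4) and 3 from mice given saline (saline 2, saline 3 and saline 4). The mice were male, of the strain labelled C57/Bl6, and 20 months old by the study's methods. Both groups received 8 tail vein injections of 100 μl over 24 days, of recombinant mouse PF4 at 5 μg per ml or of saline alone, and no transgene or deletion is named for either group. Hippocampi were dissociated with enzymes, myelin was removed on beads, and cells were captured with beads against CD11b, a surface integrin that is also carried by border macrophages and blood myeloid cells. The study's legend counts the libraries of each group as separate mice.

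Genes were included when their normalized count, the reads of a gene scaled by its library's size factor, was 100 or more in all 7 libraries. This left 5651 of the 24411 genes listed, or 36.4% of the 15516 genes with any read, and they held 92.5% to 94.6% of the counted reads of a library. The minimum matters because detection was patchy. Of 12265 genes that reached 100 in at least 1 library, 4026 (32.8%) had no read at all in another. At the edge of the minimum, Fnbp4 and Mcee were included with a lowest value of 100.46, and Neat1 and Ubqln1 were left out with a lowest value of 99.972.

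Microglia are the resident macrophages of the brain parenchyma. They sense damage and microbial products through Toll-like receptors, signal through NF-κB to cytokines such as TNF and IL-1β, make the C1q component of complement, and clear debris through phagocytic receptors and lysosomes. PF4, also called CXCL4, is a chemokine that platelets store in alpha granules and release on activation. It binds heparin and related glycosaminoglycans strongly, and CXCR3 is among its described receptors. NF-κB signalling switches on its own inhibitor IκBα, the product of Nfkbia, so that Nfkbia transcript is a commonly used readout of the pathway.

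The libraries held 19855188 to 36342162 counted reads and 10773 to 12333 genes with a read. Correlations between libraries ranged from 0.811 to 0.896 within the PF4 group, from 0.807 to 0.899 within the saline group and from 0.80 to 0.947 between the groups, so that the ranges within and between groups overlapped. The transcripts that define microglia were high in every library. Tmem119 lay between 118884 and 177946 normalized counts, Cx3cr1 between 117303 and 192950 and P2ry12 between 34694 and 51157, and the 37 transcripts of homeostatic microglia took up 11.2% to 13.7% of reads. Neuronal Rbfox3 was at 0 in 6 libraries, but neuronal Snap25 was at 0 in only 2 and reached 227.6 normalized counts in PF4 2. Neuronal Tubb3 was at 232.1 in saline 4 and at 0 in the other 6. Lymphocyte Cd3e had no read in any of the 7, but Cd79a reached 124.8 in PF4 1 and was at 0 in 3.

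Transcripts of other cells differed between libraries without following the groups. Ttr, the main secreted product of choroid plexus epithelium, was at 197501 in saline 2, 501960 in PF4 2 and 345809 in PF4 4, and between 641 and 884 in the other 4 libraries. The 20 choroid plexus transcripts together made up 1.13%, 2.95% and 2.02% of reads in those 3 libraries and 0.00413% to 0.00842% in the others. Endothelial and mural transcripts made up 0.699% in saline 2, 0.621% in PF4 1 and 0.484% in PF4 2, against 0.102% to 0.204% elsewhere. Mbp, the myelin basic protein transcript of oligodendrocytes, reached 168405 in PF4 4 and was at 51.1 in PF4 2. S100a8, a neutrophil transcript, was at 3886 in PF4 1 and at 229 to 1282 in the other libraries. Lists of other cells overlapped between saline and PF4 in every case, and their part in the results below was not tested beyond the fit without the 3 libraries high in Ttr and the fit with choroid plexus level as a covariate, which called 33 genes, 20 of the 28 below among them.

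**Figure D1:**
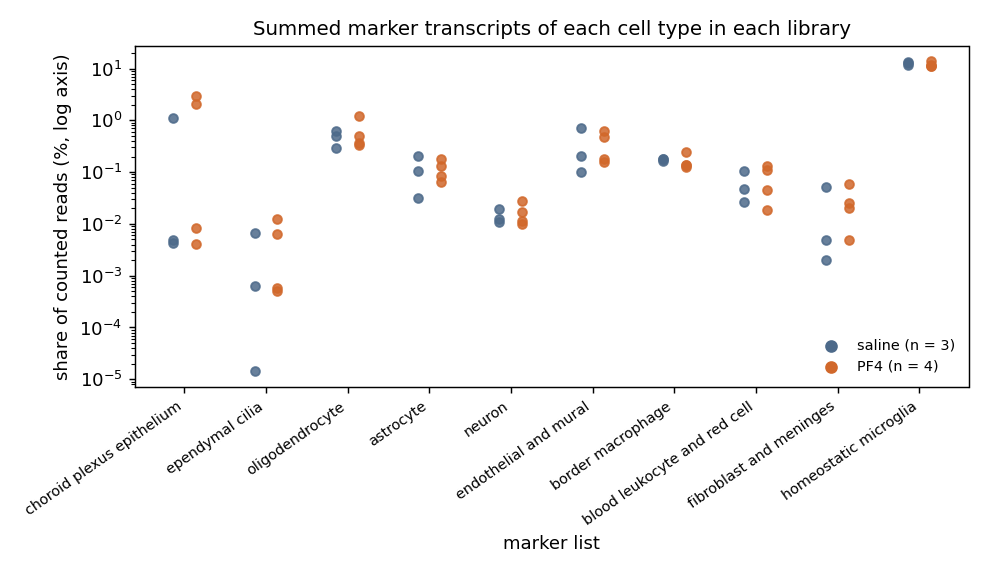
Share of counted reads taken up by the marker transcripts of each cell type, in percent on a log axis, with a point for each saline (n = 3) and PF4 (n = 4) library. Homeostatic microglia transcripts sit at 11.2% to 13.7% in all libraries, whereas choroid plexus transcripts split into 3 libraries above 1% and 4 below 0.01%, with both groups on each side.

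Few genes differed between PF4 and saline by more than the spread of their libraries, and none did so after adjustment for the number of genes tested. At the study's threshold for microglia, an unadjusted P of 0.01 in limma on log2(normalized count + 1), 28 of the 5651 genes were called (0.495%), 18 higher (0.319%) and 10 lower (0.177%) after PF4. At an unadjusted P of 0.05 there were 172 (3.04%), 110 higher (1.95%) and 62 lower (1.1%). None passed an adjusted p of 0.05 in limma, in edgeR or in DESeq2, and the smallest Benjamini-Hochberg adjusted p was 0.997 in limma. At an unadjusted P of 0.05, edgeR gave 157 genes and DESeq2 gave 218. The share of genes called was below 1%, the rate of the threshold itself, and the genes below are therefore described by their values in each library.

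Across all genes the groups were centred on each other. The median log2 fold change was -0.001 and 49.8% of genes had a higher mean after PF4. In 253 genes (4.48%) the values of the groups did not overlap, with every PF4 library above every saline library in 124 (2.19%) and below in 129 (2.28%). Of the 28 genes called, 27 were among these. Their log2 fold changes ran from 0.70 to 2.28 in size, against a median size of 0.27 over all genes tested. The called genes were mostly of low level. The residual spread between libraries was 0.70 on the log2 scale for genes with a mean of 300 to 1000 normalized counts, where 18 of the 28 lay, and 0.25 above 10000 normalized counts, where 1 lay.

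**Figure D2:**
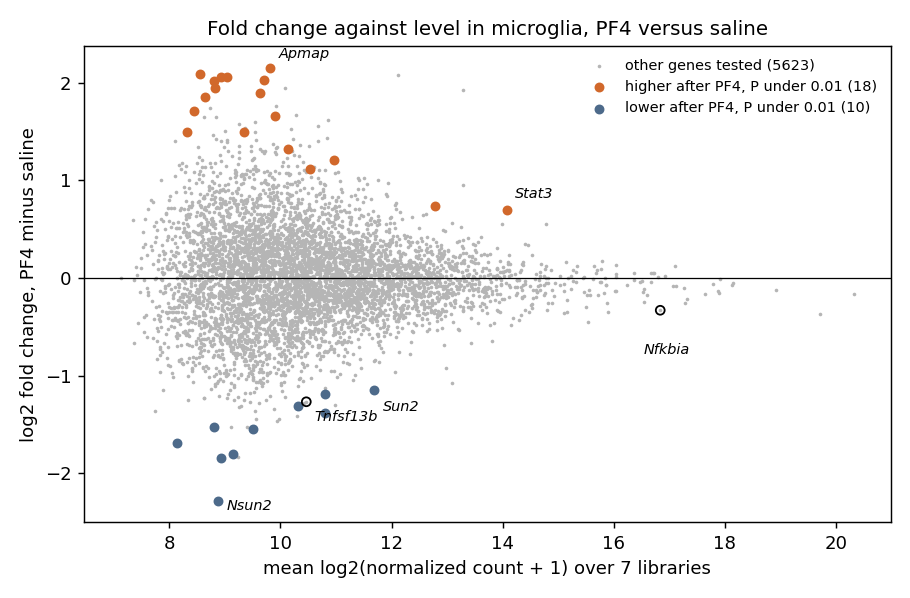
Log2 fold change, PF4 minus saline, against the mean log2(normalized count + 1) over the 7 libraries, with 1 point for each of 5651 genes. The 18 genes higher and 10 lower at an unadjusted P of 0.01 are coloured, and the spread of the others narrows from left to right, with Stat3 called at a high level and Nfkbia, circled and not called, on the far right.

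Stat3, the transcription factor downstream of the IL-6 and IL-10 receptors, was the most abundant gene called and the only member of the JAK-STAT list to pass. Its normalized counts were 9878, 14264 and 15942 in saline 2, 3 and 4, and 23661, 19244, 22627 and 19654 in PF4 1 to 4. The lowest PF4 library thus lay above the highest saline library, and the mean rose from 13360 ± 3132 (SD, n = 3) to 21300 ± 2181 (SD, n = 4). This was a log2 fold change of 0.70 ± 0.20 (SE), or 1.62-fold, with a limma unadjusted P of 0.00446 and an adjusted p of 0.997. The size fell to 0.49 without saline 2, where the unadjusted P was 0.0183, and the call was also lost without PF4 1 or PF4 3, each with a P of 0.0128. Stat3 also fell short in DESeq2, with a P of 0.011, and in limma without a variance trend, with 0.0409. Socs3, the feedback inhibitor that STAT3 induces, was not called and its mean lay on the other side, with a log2 fold change of -0.43. Stat3 lies at chr11:100886806-100939594 in GRCm38.p6.

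Cd82, a tetraspanin of the plasma membrane, was the other abundant gene among those higher. It measured 4805, 4352 and 6934 in the saline libraries and 10184, 8539, 7681 and 8780 in PF4 1 to 4. The groups did not overlap, and the log2 fold change was 0.74 ± 0.23 (SE). The P of Cd82 was 0.00704 with all libraries and 0.0139 to 0.039 without saline 2, saline 3, PF4 1, PF4 2 or PF4 4. It was 0.0112 in DESeq2 and 0.0331 in limma without a variance trend. Ano6, a calcium-activated phospholipid scramblase, was 2.16-fold higher, from 842, 1228 and 842 to 2060, 1629, 2399 and 2246. Rab8b, a small GTPase of vesicle traffic, was 2.31-fold higher, and PF4 1 at 5108 stood above the other PF4 libraries at 1971 to 2750. Ano6 fell short of the threshold without saline 2, saline 4, PF4 1, PF4 3 or PF4 4 (P up to 0.0284), and Rab8b without saline 3, saline 4, PF4 1 or PF4 4 (P up to 0.0231).

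Tsc22d2, a member of the TSC22 domain family, was the gene higher after PF4 with the smallest P, and its call did not rest on a single library. It measured 195, 560 and 475 normalized counts in the saline libraries and 1118, 1587, 1208 and 1738 in PF4 1 to 4. Its log2 fold change was 1.89 ± 0.49 (SE), and it stayed past the threshold when each of the 7 libraries was left out in turn. Fam126a encodes hyccin, part of the complex that places phosphatidylinositol 4-kinase at the plasma membrane. It measured 197, 141 and 199 in saline and 760, 567, 415 and 641 after PF4, a log2 fold change of 1.71 ± 0.45 (SE). Without saline 3 the P of Fam126a was 0.0141.

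Galns, Ap5b1, Zdhhc5 and Apmap were further genes higher after PF4, and a shared role was not tested. Galns, the lysosomal sulfatase that degrades keratan sulfate and chondroitin sulfate, measured 215, 288 and 199 in saline and 1629, 1582, 690 and 479 after PF4, a 4.15-fold difference. Without saline 4 it fell short of the threshold, at a limma unadjusted P of 0.0118. Ap5b1, a subunit of the AP-5 adaptor complex, measured 447, 194 and 589 in saline and 2079, 1786, 640 and 2236 after PF4, so that PF4 3 lay only slightly above the saline libraries. Zdhhc5, a palmitoyltransferase, ranged from 107 to 434 in saline and from 555 to 1472 after PF4. Apmap had a log2 fold change of 2.15, the highest among genes called, and 1.26 without saline 2, in which it was at 110 normalized counts against 664 and 757 in saline 3 and 4. Its P was then 0.0125, and without PF4 2 or PF4 4 it was 0.011 or 0.0168. Ap5b1 lost the call without saline 3, PF4 1, PF4 2 or PF4 4 (P up to 0.0208), and Zdhhc5 without saline 2, saline 3, PF4 1 or PF4 2 (P up to 0.0226).

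The remaining genes higher after PF4 were of mixed roles. Mrpl38, of the large mitochondrial ribosomal subunit, ranged from 122 to 336 in saline and from 434 to 1342 after PF4. Ddx50, a nucleolar RNA helicase, ranged from 306 to 449 and from 776 to 1307. Myom1, a sarcomere protein by its best known role, ranged from 126 to 356 and from 489 to 968. Fbxo46, an F-box protein, ranged from 125 to 441 and from 502 to 1739. The predicted gene Gm15800, Gprasp1, Angel1 and 2510002D24Rik completed the 18. The first 3 of these had log2 fold changes of 2.08, 1.31 and 1.66, and 2510002D24Rik measured 256, 120 and 173 in saline and 738, 317, 476 and 534 after PF4. All 8 lost the call without at least 1 library. The highest P was 0.0257 for Mrpl38 and 0.0411 for Angel1 without saline 2 (where the log2 fold change of Angel1 was 1.02), 0.0226 for Ddx50, 0.0186 for Gm15800 and 0.0237 for Gprasp1 without saline 4, and 0.0235 for Myom1, 0.0307 for Fbxo46 and 0.0511 for 2510002D24Rik without saline 3.

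Sun2, a protein of the inner nuclear membrane that links the nuclear lamina to the cytoskeleton, had the smallest P of all genes tested. Its normalized counts were 6422, 5087 and 4299 in saline 2, 3 and 4 and 1876, 2446, 3239 and 2052 in PF4 1 to 4. All PF4 libraries lay below all saline libraries, and the mean fell from 5269 ± 1073 (SD, n = 3) to 2403 ± 605.8 (SD, n = 4). The log2 fold change of Sun2 was -1.15 ± 0.29 (SE), with a 95% interval of -1.77 to -0.52, a limma unadjusted P of 0.00164 and an adjusted p of 0.997. Like Tsc22d2 it stayed past the threshold without each library in turn. Sun2 lies at chr15:79724068-79742536 in GRCm38.p6.

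Regulators of chromatin, RNA and DNA repair were among the other genes lower after PF4. Kmt2a, a methyltransferase of histone H3, measured 1135, 1633 and 840 in saline and 417, 331, 361 and 245 after PF4, a log2 fold change of -1.80 ± 0.46 (SE). Nsun2, which places 5-methylcytosine on RNA, measured 885, 2311 and 756 in saline and 174, 405, 357 and 127 after PF4. Both lost the call without saline 3, the library with the most of each, with a P of 0.0139 for Kmt2a and 0.0153 for Nsun2. Tdp1, which removes trapped topoisomerase I from DNA, measured 2397, 2039 and 2020 in saline and 933, 921, 975 and 659 after PF4. Its P was 0.00312 with all libraries and 0.0101 to 0.0136 when 1 of the saline libraries was left out.

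Genes of mitochondria, vesicle fusion and gangliosides made up most of the rest. Mrpl10, of the large mitochondrial ribosomal subunit like Mrpl38 but lower after PF4, measured 1927, 1070 and 1167 in saline and 369, 413, 517 and 556 after PF4. Timm21, of the inner membrane translocase, ranged from 736 to 950 in saline and from 190 to 397 after PF4. Vps16, a core subunit of the tethering complexes that bring endosomes and autophagosomes to lysosomes, measured 2489, 3845 and 3104 in saline and 1086, 586, 1803 and 1744 after PF4, a log2 fold change of -1.38 ± 0.42 (SE). It was the only member of the autophagy list to pass, and its P was 0.0122 to 0.0345 without saline 3, saline 4, PF4 1 or PF4 2. B4galnt1, the enzyme that commits lactosylceramide derivatives to complex gangliosides, ranged from 1876 to 3655 in saline and from 892 to 1473 after PF4. Nudt19, a coenzyme A hydrolase, ranged from 680 to 1824 and from 140 to 562. The last, 3110082I17Rik, was the only called gene whose groups overlapped, since saline 3 and PF4 3 both stood at 227. The calls of Mrpl10, B4galnt1, Nudt19 and 3110082I17Rik were lost without saline 2, with a P of 0.026, 0.0314, 0.0456 and 0.0504, and that of Timm21 without saline 3, with a P of 0.0241. These were not the only losses. With each of the 7 libraries left out in turn, the call stayed in 5 fits for Mrpl10, 3 for B4galnt1 and 2 for Timm21. It stayed in 1 fit each for Nudt19 and 3110082I17Rik.

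**Figure D3:**
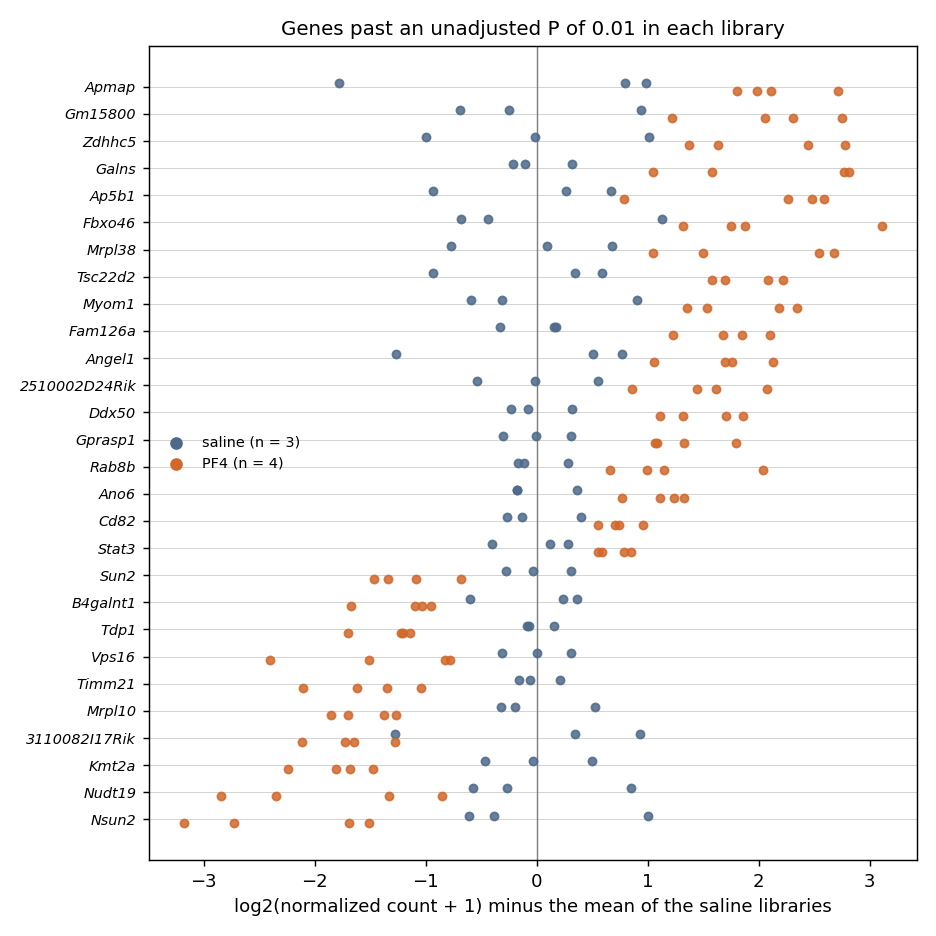
Log2(normalized count + 1) of the 28 genes past an unadjusted P of 0.01, minus the mean of the saline libraries, with a point for each saline (n = 3) and PF4 (n = 4) library. In 27 genes the groups are separate, and in 3110082I17Rik the lowest saline value meets the highest PF4 value.

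The libraries did not contribute equally to these separations. In 15 of the 27 called genes without overlap, PF4 3 was the PF4 library nearest to the saline values, against 3, 4 and 5 for PF4 1, PF4 2 and PF4 4. Saline 4 was the saline library nearest to the PF4 values in 15, against 6 each for saline 2 and saline 3. The same held over all 253 genes without overlap, in which PF4 3 was nearest in 107 and saline 4 in 130. Leaving out saline 4 raised the count of called genes from 28 to 50 and leaving out PF4 4 lowered it to 18, and without saline 2 or PF4 3 it was 41. Of the 28 genes, 22 were still called without PF4 3, 14 without saline 4, PF4 1, PF4 2 or PF4 4, 13 without saline 2 and 11 without saline 3. Only 2, Sun2 and Tsc22d2, stayed called without each library in turn, and 11 were called in 4 or more of these 7 fits. All 28 kept their direction in every alternative fit that included them. For the 27 without overlap, leaving out libraries could not reverse the direction. A filter of 500 in all 7 libraries included 9 of the 28. With saline 2, PF4 2 and PF4 4 left out, the libraries high in Ttr, 24 genes were called in 2 libraries against 2, and 0 of the 28 were among them. In that smaller fit all 28 kept their direction, which was fixed in advance for the 27 without overlap. In 24 of the 28 the log2 fold change stayed within 1.5 times its value with all libraries, as in Galns at 2.14, Nsun2 at -2.40 and Rab8b at 1.49. It was smaller by more than this in 4, Apmap at 1.00, Angel1 at 0.95, Tsc22d2 at 1.17 and Fbxo46 at 1.31.

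The study examined inflammatory and microglial activation genes or their proteins, and 12 of 13 genes so chosen could be tested here. By qPCR it measured Tnf, Il1b, Nfkb1, C1qb and CD11b in whole hippocampus, and by staining C1q, CD68 and IBA1 protein. Nfkbia and Tnfsf13b are among the genes it reported as lower in microglial RNA. Most values below thus do not repeat the study's own measure. None of the 12 passed the threshold. The mean on the log2 scale was lower after PF4 in 10 of the 12. Over all genes tested, 49.8% had a higher mean. In 9 of the 12 the direction was the same in every alternative fit that included them. Nfkbia and Tnfsf13b are in both counts, although their decrease in these same libraries was known beforehand, so they add no independent evidence. Their groups did not overlap, so leaving out libraries could not reverse their direction. Tnfsf13b, which encodes the B cell survival cytokine BAFF, came nearest. It measured 2962, 2697 and 1593 in saline 2, 3 and 4 and 557, 1588, 850 and 1176 in PF4 1 to 4. All PF4 libraries lay below all saline libraries, but PF4 2 nearly met saline 4. The log2 fold change of Tnfsf13b was -1.27 ± 0.44 (SE), with a 95% interval of -2.21 to -0.32 and a limma unadjusted P of 0.0128. It passed 0.01 in 5 of the 22 alternative fits, among them DESeq2 with 0.00505 and the fits without saline 4 or PF4 2 with 0.00957 and 0.00575.

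Nfkbia, the transcript of IκBα, was the most precisely measured gene without overlap among these. It measured 127034, 141316 and 131988 in saline and 98579, 96279, 120118 and 110859 after PF4. The mean was 133400 ± 7252 (SD, n = 3) in saline and 106500 ± 11130 (SD, n = 4) after PF4, a log2 fold change of -0.33 ± 0.14 (SE). Its limma unadjusted P was 0.0388, and P was 0.0594 in edgeR and 0.17 in DESeq2. The exact permutation p of Nfkbia and of Tnfsf13b was 0.0571 (two-sided), the smallest that 3 against 4 libraries can give.

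Nfkbia is a textbook target of NF-κB, and the bases upstream of its start are shown because they carry the words that this factor is known to bind. The 250 bases before the RefSeq transcript start, at chr12:55492648-55492897 on the minus strand of GRCm38.p6, are printed 5′ to 3′, with letters that match the κB-type words GGAAATTCC and GGACTTTCC in capitals.

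Nfkbia upstream: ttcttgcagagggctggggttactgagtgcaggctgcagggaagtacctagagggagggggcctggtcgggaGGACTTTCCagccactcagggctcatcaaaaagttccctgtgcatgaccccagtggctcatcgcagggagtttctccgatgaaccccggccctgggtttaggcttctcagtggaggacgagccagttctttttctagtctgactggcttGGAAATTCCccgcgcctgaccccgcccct

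The first word lies 178 to 170 bases and the other 29 to 21 bases before the start. Searched on both strands of 32851 RefSeq promoter windows of the same length, GGAAATTCC was found in 0.286%, GGACTTTCC in 0.283% and either word in 0.566%. A match of letters is a description and not evidence that a factor was bound in these cells.

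Tnf itself measured 34630, 38633 and 50449 in saline and 27193, 25751, 41535 and 35355 after PF4. Its groups overlapped, and the log2 fold change was -0.35 ± 0.21 (SE), with a 95% interval of -0.80 to 0.09. Without saline 4 the difference in Tnf was -0.20 (limma unadjusted P of 0.391), and without PF4 3 it was -0.48 (limma unadjusted P of 0.0366). Il1b overlapped fully, at 4341 to 6786 in saline and 3329 to 9281 after PF4, where PF4 4 held the highest value of all. Nfkb1, the p105 precursor of the NF-κB subunit p50, had a log2 fold change of 0.05 with a 95% interval of -0.51 to 0.61. The interval of Il1b was -0.93 to 0.51. The difference measured for Nfkbia lies inside both intervals, so a difference of that size is not excluded in Il1b or Nfkb1.

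The C1q genes and the surface and phagocytic markers overlapped as well. C1qb, a chain of the complement initiator C1q, measured 240725, 261745 and 274269 in saline and 221698, 222265, 251746 and 237407 after PF4, a log2 fold change of -0.15 ± 0.13 (SE). C1qa had -0.12 and C1qc -0.41, the latter with an SE of 0.32. Without saline 3 these were -0.02 for C1qa and -0.18 for C1qc, and without PF4 3 C1qc had -0.68 at a limma unadjusted P of 0.0303. Cd68, a lysosomal glycoprotein of active phagocytes, had -0.18, Aif1, which encodes the marker IBA1, had -0.30, and Itgam, which encodes CD11b itself and was used to capture the cells, had -0.07. Cxcr3 was seen in PF4 3 alone, at 105 normalized counts, and had no read in the other 6 libraries, so it was not tested. Pf4 is itself transcribed by border macrophages and was present at 330, 685 and 1150 in saline and 585, 429, 614 and 1130 after PF4, a log2 fold change of 0.02 ± 0.54 (SE). In bulk libraries, fewer cells of a type and less RNA per cell cannot be told apart.

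**Figure D4:**
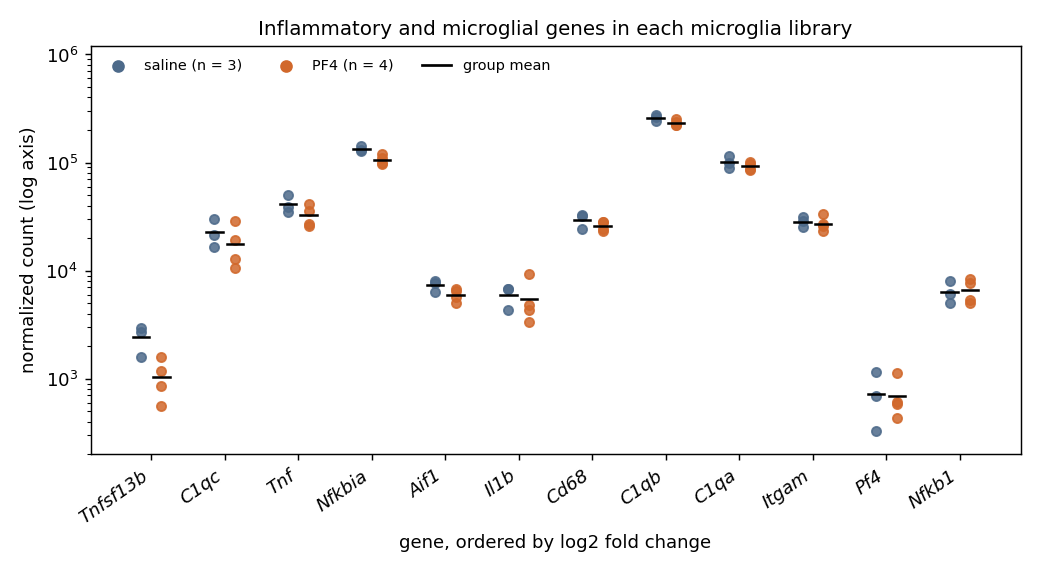
Normalized count on a log axis of 12 inflammatory and microglial genes in each saline (n = 3) and PF4 (n = 4) library, with bars at the group means and genes ordered by log2 fold change. Tnfsf13b and Nfkbia are the 2 genes in which no PF4 library reaches the saline libraries, and all others overlap. The study reported both as lower from these same libraries. Over all genes tested, the groups did not overlap in 4.48%.

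The wider pathways were described with 25 lists of genes, which held 724 genes tested. Of these, 2 passed an unadjusted P of 0.01 (0.276%, against 0.495% of all genes), Stat3 and Vps16. The groups did not overlap in 40 (5.52%, against 4.48%), 11 higher and 29 lower after PF4. The members named in the following paragraphs without a P under 0.01 were chosen after their values were seen.

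In the TNF and NF-κB list, 13 of 42 genes tested had a higher mean after PF4, and the median log2 fold change was -0.16. Birc3, an NF-κB target that inhibits cell death, was among the higher ones at 0.76, with overlapping groups. In the complement list 1 of 10 was higher, with a median of -0.15. Both medians stayed below 0 in every alternative fit and came nearest to it without PF4 2, at -0.02 and -0.06. The mean log2 level of each list overlapped between groups, however. For TNF and NF-κB it was 11.18 to 11.32 in saline and 10.94 to 11.33 after PF4. For complement it was 13.98 to 14.07 in saline and 13.64 to 14.18 after PF4. Among cytokines and chemokines 7 of 20 were higher. The groups were separate in 2 of the 20, Ccl6 and Ccl2, both on the lower side, against 2.28% of all genes tested. Ccl6 measured 1954, 2094 and 1704 in saline and 896, 850, 1382 and 1406 after PF4. Ccl2, the monocyte chemoattractant, measured 1553, 1623 and 1447 in saline and 1006, 734, 1376 and 1327 after PF4. Both were lower in every PF4 library, with a limma unadjusted P of 0.0501 for Ccl6 and 0.201 for Ccl2. Of 21 genes tested in the receptor list, 1 was separated, Csf3r, the receptor for granulocyte colony-stimulating factor. It measured 13207, 13917 and 16155 in saline and 6114, 9549, 12658 and 9046 after PF4. Its limma unadjusted P was 0.0164.

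Of the 18 genes tested in the Toll-like receptor list, 2 were separated on the higher side, against 2.19% of all genes tested. Tlr7, the endosomal receptor for single-stranded RNA, measured 2434, 1463 and 2082 in saline and 2751, 3252, 3172 and 2638 after PF4. Tlr3, the endosomal receptor for double-stranded RNA, measured 483, 854 and 461 in saline and 872, 1037, 1139 and 1029 after PF4. Neither passed the threshold, with log2 fold changes of 0.59 ± 0.29 (SE) and 0.82 ± 0.43 (SE), and the list as a whole had 7 of 18 higher and a median of -0.08, or 0.01 without PF4 1. In the interferon response list, with 20 of 33 higher and a median of 0.09, the guanylate-binding proteins went opposite ways. Gbp7 measured 1208, 796 and 1876 in saline and 2093, 2390, 2247 and 2462 after PF4, and Gbp3 measured 1192, 1612 and 1200 in saline and 964, 443, 936 and 527 after PF4. The interferon median changed sign across the alternative fits, from -0.06 without saline 3 to 0.28 without the 3 libraries high in Ttr.

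Genes of the homeostatic microglia signature had 11 of 37 higher and a median of -0.03, which was -0.17 without saline 2 and 0.02 with choroid plexus level as a covariate. Those of disease-associated microglia had 8 of 28 higher and a median of -0.16, which ran from -0.22 without PF4 4 to -0.06 without PF4 1, and those of MHC class I and II had 9 of 23 higher and a median of -0.09, which turned to 0.02 without PF4 2. Phagocytosis receptors had a median of -0.03, which was 0.08 without PF4 2 and -0.10 without PF4 3. Lysosomal genes had a median of -0.01, with 27 of 57 higher, and of -0.10 without the 3 libraries high in Ttr. In the lysosome list, Lamp2 and Tpp1 were separated on the higher side and Ctsl and Tmem175 on the lower. These were 2 of the 57 on each side, against 2.19% higher and 2.28% lower over all genes tested. Lamp2, a membrane protein of lysosomes, measured 8002, 9154 and 8663 in saline and 11085, 11237, 10168 and 12646 after PF4. Ctsl, the protease cathepsin L, measured 31927, 33882 and 30802 in saline and 22062, 24626, 30400 and 26445 after PF4. PF4 receptors and binding proteoglycans had 6 genes that could be tested, and Sdc3, a heparan sulfate proteoglycan, had a log2 fold change of 1.57 with overlapping groups. Its limma unadjusted P was 0.0195.

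Of 79 genes for cytosolic ribosomal proteins, 75 had a lower mean after PF4 and 4 a higher one, against 49.8% higher over all genes, and the median log2 fold change was -0.27. None passed an unadjusted P of 0.01. The groups were separated in 10 of the 79 on the lower side and in 1 on the higher side. Over all genes tested these shares were 2.28% lower and 2.19% higher. Rpl13 measured 23646, 26453 and 21948 in saline and 16869, 18784, 19294 and 18692 after PF4, and Rpl4 measured 18006, 17883 and 17094 in saline and 15177, 14585, 15728 and 15321 after PF4. The mean log2 level of the list overlapped between groups, from 11.67 to 12.14 in saline and from 11.55 to 11.82 after PF4. The median ran from -0.38 without saline 4 to -0.16 without saline 2 across the alternative fits. These genes have many processed pseudogenes, so the assignment of their reads is uncertain, and genes of a list are not independent of each other.

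Genes of energy metabolism had medians above 0. Of 75 nuclear-encoded genes of oxidative phosphorylation, 57 had a higher mean after PF4, with a median of 0.16, but the spread between libraries was wider than this difference, at 0.35 (SD of the mean log2 level), and the median was -0.03 with choroid plexus level as a covariate and 0.36 without saline 2. In the glycolysis and hypoxia list 20 of 26 were higher, with a median of 0.09, and of 0.18 without saline 2 and 0.05 without PF4 2. It was the only 1 of the 25 lists whose mean log2 level did not overlap between groups. The level was 12.22 to 12.30 in the saline libraries and 12.42 to 12.50 in the PF4 libraries. That 1 of 25 is close to the 4.48% of all genes tested whose groups did not overlap. Bnip3, a hypoxia-induced mitophagy receptor, measured 583, 724 and 957 in saline and 1640, 1615, 1064 and 1437 after PF4. Slc16a1, the lactate transporter MCT1, measured 998, 780 and 1032 in saline and 2599, 1739, 1419 and 1094 after PF4. Cholesterol and lipid handling genes had 17 of 29 higher, with a median of 0.17 that fell to 0.07 without PF4 1 and to 0.08 without saline 4.

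Immediate early and dissociation-stress genes are switched on while tissue is taken apart, and 17 of 44 were higher after PF4, with a median of -0.12, and of -0.23 without saline 2 and -0.04 with choroid plexus level as a covariate. The groups were separated on the lower side in 4 of the 44, Fos, Fkbp5, Nr4a1 and Gadd45b, against 2.28% of all genes tested. Fos measured 41373, 44483 and 40234 in saline and 30607, 34171, 34971 and 31925 after PF4, a log2 fold change of -0.35 ± 0.15 (SE) at a limma unadjusted P of 0.0329. Nr4a1 measured 24053, 25479 and 24515 in saline and 13500, 20559, 22611 and 23568 after PF4. Nfkbia and Tnf belong to the genes that respond to dissociation as well, and what part handling had in their values was not tested. In autophagy, Gabarapl1 was separated beside Vps16, at 4412, 3116 and 2346 in saline and 945, 1969, 1676 and 2130 after PF4, while 16 of the 33 genes of the list were higher. In all, 2 of the 33 were separated on the lower side and 1 on the higher side. Proteasome, mitosis, unfolded protein, antioxidant, TGF-β and inflammasome lists had medians between -0.01 and 0.07 with all libraries.

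**Figure D5:**
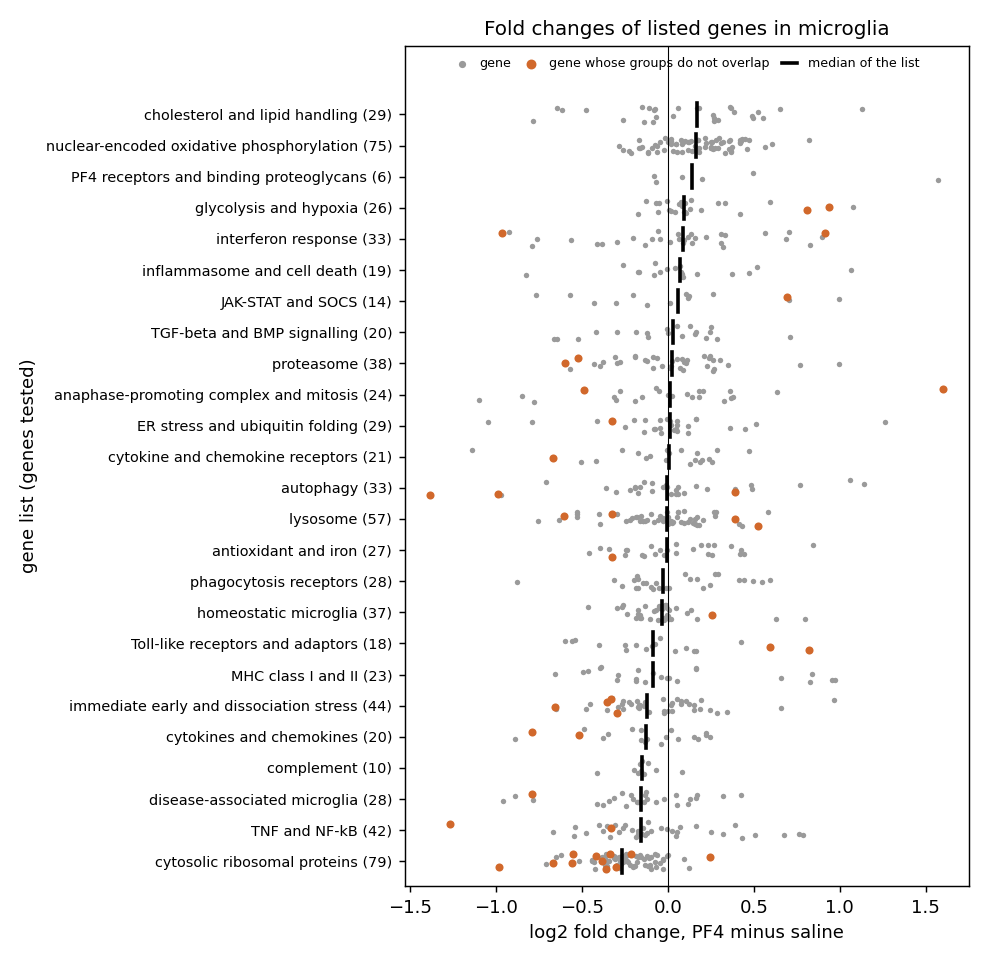
Log2 fold change, PF4 minus saline, of each gene tested in 25 lists, with vertical position spread at random within a list, bars at the list medians and genes whose groups do not overlap in orange. Medians lie between -0.27 for cytosolic ribosomal proteins and 0.17 for cholesterol and lipid handling, and most lists straddle 0.

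The same genes were then read in whole hippocampi from aged mice of the other experiment, of which 5 received saline, 6 a plasma preparation from young blood and 6 its platelet fraction. Both comparisons share the 5 saline hippocampi, so their values are given side by side. Of the 18 genes higher in microglia after PF4, 7 had a higher mean in hippocampus after young plasma, with a median log2 fold change of -0.04, and 10 after the young platelet fraction, with a median of 0.06. Of the 10 genes lower in microglia, 4 and 6 had a higher mean, with medians of -0.01 and 0.02. At an unadjusted P of 0.05, which 3.35% and 3.87% of hippocampal genes passed, Cd82 was higher after both preparations, at 0.50 ± 0.22 (SE) and 0.54 ± 0.23 (SE), and Ap5b1 was higher after the platelet fraction at 0.48 ± 0.21 (SE). Sun2, lower in microglia, had 0.32 and 0.34 in hippocampus with a P of 0.221 and 0.141. Across 5536 and 5533 genes, which are not independent replicates, the correlation of microglial with hippocampal fold changes was -0.03 for young plasma and 0.03 for the platelet fraction. Whole hippocampus is a mixture in which microglia are a minor part, and the treatments differ.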

How the data were processed

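Per the labels, the authors used STAR on the mm10 build, RSEM for gene counts and DESeq2 for scaling. The deposited signal is a normalized count, in which reads are scaled by the library's size factor. In the microglia table, whole reads were recovered for 100% of values within 0.01 of a read. In each table of hippocampi, 1 library did not give whole reads, and limma alone was used there. Counts carry no molecular identifiers. Intervals and spreads cover differences between libraries, which the study's legend counts as mice. Strand use in counting is not given in the sources used here, and neither is the source of the disagreement between a strand-specific poly(A) kit in the labels and a modified Smart-Seq2 protocol in the methods. Reads of paralogs, pseudogenes and antisense partners may be shared.

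Genes at 100 or more in all 7 libraries were fitted as log2(normalized count + 1) with limma 3.58.1 (variance trend, 2 groups) in R 4.3.3. Unadjusted P under 0.01, the study's threshold, defined a call, and Benjamini-Hochberg adjusted p under 0.05 was computed over the 5651 genes. Hippocampal tables were kept at 10 or more in 5 libraries and fitted in the same way. Single genes also had two-sided exact permutation tests. Columns of the authors' own fold changes and p-values were not used. Code was tested on simulated counts.

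By rule, the genes named are 13 tied to transcripts or proteins that the study examined, the 12 called genes of lowest P in each direction, up to 4 called members of each list, 2 on each side of the minimum of 100, and defining markers of cell types. The other called genes, and uncalled members of lists, were chosen after their values were seen. Members and the 34 lists (1193 entries, 5 not matched, 25 of pathways and microglia and 9 of other cells) were chosen with earlier results of these data known. Alternatives were pseudocounts, filters, scalings, edgeR 4.0.16 and DESeq2 1.42.0 on recovered reads, limma without a trend, a replicate block, a choroid plexus covariate, and each library left out. Leaving out the 3 libraries high in Ttr was chosen after seeing the data. Coordinates and promoter sequence are from RefSeq for GRCm38.p6, the assembly of mm10. Some single genes are not reported here.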

Additional observations from a re-analysis of the deposited data

Results flagged for a closer look

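The 4 PF4 libraries were examined for a single library far from the other 3 in 71 measures (named genes, list levels and depth), with Dixon's ratio of the gap to the whole range. In unremarkable data about 1 in 20 groups would be marked above the 95% critical value. Only Tdp1 was, with a ratio of 0.854. Its log2 normalized count was 9.367 in PF4 4 and 9.848 to 9.931 in the other PF4 libraries, and all 4 values lay below those of the saline libraries. The saline group of 3 was too small for this measure.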

How the results depend on the processing

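The precision was limited by 3 against 4 libraries and by the spread of low genes. No gene passed an adjusted p of 0.05 in limma, edgeR, DESeq2 or any of the 22 alternative fits. The count past an unadjusted P of 0.01 was 28 (18 higher, 10 lower). It was 44 with a filter of 10 in 3 libraries (19 lower), 12 with a filter of 500 in all 7 (5 higher, fewer genes tested), 57 in DESeq2 (38 higher, 19 lower) and 47 in limma without a trend (32 higher). With each library left out it ran from 18 to 50, with 9 to 40 higher and 4 to 18 lower. Without the 3 libraries high in Ttr it was 24, and 0 of the 28 genes remained. In that fit of 2 libraries against 2, 24 of the 28 kept a log2 fold change within 1.5 times. All 28 kept their direction, which could not reverse in the 27 without overlap. Genes without overlap numbered 253, 555 without a filter, 523 with a filter of 10 and 147 with a filter of 500, and 459 to 791 with a library left out, where fewer libraries have to be separated. Without the 3 libraries high in Ttr there were 2107. Of the alternatives, 17 of the 28 genes were called without a filter, 26 each in edgeR (not Apmap or Angel1) and DESeq2 (not Stat3 or Cd82), 27 with TMM scaling and 20 with the covariate. Pseudocounts of 0.5 and 5 left the count at 28. After the mean of its group was subtracted from each gene, same-numbered libraries correlated at 0.174, 0.0772 and 0.0985. Differently numbered pairs correlated at -0.275 to 0.279, so the numbers were not taken to pair the libraries. With the replicate block 28 genes were called, 14 higher and 14 lower, and 15 of the 28 were among them. Number 1 exists only for PF4, so PF4 1 did not contribute to the fold changes with the block. They equal those without PF4 1, as in Stat3 at 0.64 in both, although the P values differ. The block turned the median of the Toll-like receptor list to 0.01. The direction of the hippocampal medians was not tested. They were recomputed in 10 alternatives, the pseudocounts, the filter of 500 and each microglia library left out. In all of these they moved by less than the spread between libraries. The cause of these changes was not tested.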

Other observations

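Genes that failed the minimum of 100 in all libraries include a group that a filter of this kind hides. In 22 genes every PF4 library was at 100 or more and every saline library below, and in 10 the reverse. These stand among 853 excluded genes that reached 100 in all PF4 libraries and 1057 that did so in all saline libraries, and they were chosen after their values were seen, so no test is given. The unnamed transcript 2810021J22Rik had no read in any saline library and 671, 781, 158 and 382 reads in PF4 1 to 4. Smad6, an inhibitor of BMP signalling, had 8, 0 and 1 reads in saline and 514, 179, 145 and 250 after PF4. Psme3, a proteasome activator, had 0, 2 and 11 reads in saline and 672, 106, 160 and 223 after PF4.

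Top2a and Chek2, genes linked to cell division, were in the same group. In the mitosis list of genes that met the minimum, 13 of 24 had a higher mean after PF4, with a median log2 fold change of 0.01. Top2a, the topoisomerase of dividing cells, had 1, 5 and 95 reads in saline and 271, 261, 189 and 234 after PF4. In the reverse group, Neil1, a DNA glycosylase of base excision repair, had 312, 254 and 181 reads in saline and 1, 0, 15 and 0 after PF4. Kif13b, a kinesin, had 281, 168 and 219 reads in saline and 8, 0, 50 and 0 after PF4. Of all genes that reached 100 in some library, 32.8% had no read in at least 1 other.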
